A study of Drosophila melanogaster with 4 samples.

Results

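Tropomyosin and the troponins form the calcium switch on the actin filament of muscle, and the probes for their genes were followed here in flies without dSETD3 and in control flies. The members are 6 of 9 listed genes: the tropomyosin genes Tm1 and Tm2, the troponin T gene up (upheld), the troponin I gene wupA (wings up A), and the troponin C genes TpnC4 and TpnC41C. A probe was taken as a member if the study's probe lists named it with one of these symbols, or if it carried the transcript identifier of such a probe. This gave 23 of the 32162 probes on the array, with 9 probes for Tm1, 5 for wupA, 3 for TpnC41C and 2 each for Tm2, up and TpnC4. No probe could be named for TpnC47D, TpnC73F or TpnC25D, which were left out.

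Total RNA came from virgin female flies aged 5 days and was hybridised to 4 one-colour Agilent arrays, 2 per genotype. Control flies were w[1118], an isogenic stock, and dSETD3 KO flies (w[1118];;CG32732-/-) carried a CRISPR-Cas9 deletion in which a dsRED cassette replaced the first exon of dSETD3 (CG32732). The KO flies came from 1 knockout stock that had been backcrossed to w[1118], and both genotypes share the w[1118] background. The flies themselves were lysed for RNA, with no dissection described. How many flies went into a sample is not given in the sources used here, nor whether replicates came from separate collections, so that p-values may measure only a technical spread.

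In a resting fibre tropomyosin lies along the actin filament and covers the sites to which myosin binds. Calcium binds troponin C, troponin I then releases actin, and troponin T, which anchors the complex to tropomyosin, passes the movement on. In the fly, Tm1 gives rise to muscle tropomyosins and, from other promoters and exons, to cytoplasmic forms that are also made outside muscle, while mutants of wupA and up are known from the abnormal posture of their wings.

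The sequences of the Tm1 probes are shown first, because probes of this gene behaved differently from one another. Each probe on the array is a single DNA strand of 60 bases. Probes with no open reading frame, or with a single open frame and a GC content under 50%, could lie in untranslated sequence and are shown by their first 30 bases. This is a loose cut, since the median GC content of the 1965 probe sequences read here was 38.3%. Tm1 and Tm2 lie on chromosome arm 3R and wupA on the X chromosome.
Tm1 A_09_P009761, transcript FBtr0089959: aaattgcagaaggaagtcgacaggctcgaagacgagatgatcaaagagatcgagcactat
Tm1 A_09_P009766, transcript FBtr0089960, first 30 bases: atacttgaccttgtacttttgtatttgacg
Tm1 A_09_P009771, transcript FBtr0089962, first 30 bases: cgcccgcctgaccatatgcaatatatatac
Tm1 A_09_P009756, transcript FBtr0089957: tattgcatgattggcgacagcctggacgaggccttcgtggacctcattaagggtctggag
Tm2 A_09_P010166, transcript FBtr0083078: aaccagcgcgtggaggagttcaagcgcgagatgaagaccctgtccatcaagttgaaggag

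A pair of wupA probes is shown because they overlap, with the shared run in capitals.
wupA A_09_P010057, transcript FBtr0074520: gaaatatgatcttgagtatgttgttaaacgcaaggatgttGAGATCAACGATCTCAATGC
wupA A_09_P010066, transcript FBtr0074524: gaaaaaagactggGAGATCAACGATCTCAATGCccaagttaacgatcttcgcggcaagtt
The run of 20 bases covers positions 41 to 60 of A_09_P010057 and 14 to 33 of A_09_P010066, counted from the 5′ end as listed. Of the 1965 probe sequences read here only these 2 hold it, and the next longest run shared by any pair among the 8 member probes with a sequence was 10 bases. Whether the signals of these wupA probes include some of the same transcripts was not tested. The Tm1 probes listed have no long run in common. Probes at different places of the same transcript need not share a run, so this does not show that they read different transcripts.

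The 4 arrays had 32162 probes, of which 20464 to 21482 were well above background on an array, and no spot was saturated. The values compared are background-corrected signals on the log2 scale minus the array's 75th percentile of all probes. The percentile stood at signals of 1630 (control replicate 1), 1766 (control replicate 2), 1662 (KO replicate 1) and 1179 (KO replicate 2), so raw signals of the last array run low. Replicates correlated at r = 0.991 (control) and r = 0.993 (KO) across probes. The control and KO arrays lay at different positions of 1 slide, so slide position cannot be told apart from genotype. The deleted gene followed the labels: CG32732 probe A_09_P016351 gave signals of 7810 and 7999 in control flies and of 9.87 and 4.99 in KO flies, where it was not well above background.

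Testing required a signal well above background on both control or on both KO arrays, which left 21082 probes, 21 of the 23 members among them. The 2 members not tested were Tm1 A_09_P009756, with signals from 2.86 to 6.73 over the 4 arrays, and TpnC4 A_09_P152660, with 7.14 and 11.0 in control and 3.80 and 4.48 in KO flies. Neither was well above background on any array. At the level of all tested probes, 16.5% were lower and 3.82% higher in KO flies at an adjusted p under 0.05 (limma with Benjamini-Hochberg adjustment), and the median log2 change was 0.02. This split of 3488 lower to 806 higher probes became 2443 to 1425 after quantile normalization and 2521 to 1495 after cyclic loess normalization.

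Most tropomyosin and troponin probes were lower in the KO flies, while a subset of Tm1 probes was not. How a probe came to be named matters for this count. Of the 21 tested members, 10 were named whatever their outcome, from the study's list of all probes, and 11 only because a probe of their transcript was on its list of changed genes. Among the 10, 7 were lower at an adjusted p under 0.05 (limma), against 16.5% of all tested probes, 0 were higher, against 3.82%, and 3, all of Tm1, passed in neither direction. In the 7 lower probes both KO arrays lay below both control arrays, which held for 37.2% of all tested probes, and in the other 3 both KO arrays lay above both control arrays, which held for 39.4%. The median log2 change of the 10 was -0.84, a ratio of 0.557. The 11 probes named from the changed genes had log2 changes from -1.31 to -0.01 with a median of -1.15. These values are given as a description, because the listing itself required a change at a probe of the transcript. The 7 calls were lost when either control array was left out, when probes were not filtered on signal, and by the methods' t-test. That t-test was given a Benjamini-Hochberg adjustment here, and the paper names no adjustment. With no filter, 9 of the 10 had an unadjusted p under 0.05 (limma) in either direction, beside 8047 of all probes. By the methods' t-test without adjustment there were also 9, beside 6429 of the 21082 tested probes. The reported limma fit likewise gave 9 at an unadjusted p under 0.05, beside 9282. All adjusted p-values below come from the same limma fit with Benjamini-Hochberg adjustment over the 21082 probes, and each mean rests on 2 arrays per genotype.

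Tm1 was the gene whose probes diverged. Probe A_09_P009761 of transcript FBtr0089959 had signals of 4270 and 5279 in control flies and of 2013 and 1322 in KO flies. Relative to each array's 75th percentile these were 2.62 and 2.99 in control and 1.21 and 1.12 in KO flies, a log2 change of -1.26 ± 0.11 (SE, adjusted p = 0.017). The KO arrays thus lay well under the control arrays, at 0.416 of their level.

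Transcript FBtr0089960 is covered by 3 probes. At A_09_P009766 the signals were 5890 and 6238 in control flies and 7336 and 5654 in KO flies. Scaled to the array, this was 3.61 and 3.54 in control and 4.42 and 4.79 in KO flies. Both KO arrays were above both control arrays, with a log2 change of 0.36 ± 0.09 (SE), which did not pass the test (adjusted p = 0.060).

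At A_09_P198680 the signals were 2530 and 2715 in control flies and 3227 and 2335 in KO flies, or 1.55 and 1.54 against 1.94 and 1.98 times the 75th percentile. The log2 change was 0.34 ± 0.08 (SE, adjusted p = 0.055), again with both KO arrays above both controls and again short of the threshold. Under median scaling both A_09_P009766 (log2 change 0.45, adjusted p = 0.047) and A_09_P198680 (0.43, adjusted p = 0.044) passed, and A_09_P198680 also passed among probes well above background on all 4 arrays (adjusted p = 0.047).

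The third probe of FBtr0089960, A_09_P222575, went the other way. Its signals were 6090 and 7175 in control and 4366 and 3162 in KO flies, which is 3.74 and 4.07 against 2.63 and 2.68 times the 75th percentile. The log2 change was -0.55 ± 0.09 (SE, adjusted p = 0.030), so that this probe fell to 0.681 of control although it carries the same transcript identifier as the other two. This call was lost without KO replicate 1 (adjusted p = 0.054).

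Probe A_09_P009771 of transcript FBtr0089962 had signals of 3770 and 3791 in control flies and of 4023 and 2813 in KO flies. On the scaled values, 2.31 and 2.15 in control and 2.42 and 2.39 in KO flies, the log2 change was 0.11 with a 95% confidence interval from -0.13 to 0.35 (adjusted p = 0.37).

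The probes of FBtr0089965 are described only, since the transcript was named from the changed genes. A_09_P051276 gave signals of 19600 and 26202 in control and 9440 and 7369 in KO flies, a log2 difference of -1.16, and A_09_P198685 gave 14000 and 18385 in control and 6535 and 4370 in KO flies, a difference of -1.31. The dim probe A_09_P183355, at 42.5 and 44.5 in control and 35.3 and 35.8 in KO flies, had a difference of -0.01 and overlapping groups. The 2 bright probes of this transcript therefore had values close to those of A_09_P009761, and the dim one did not.

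Whether Tm1 probes changed by different amounts was tested within each array, where scaling between arrays cancels. The log2 ratio of each pair of probes was compared between genotypes with limma over all 6142 pairs of tested probes that share a gene or a transcript, of which 2.78% differed at an adjusted p under 0.05. Among the members, 14 pairs had both probes named whatever their outcome, and 6 of them differed, all from Tm1. Tm1 thus contributed 6 of its 10 pairs, wupA 0 of 3 and Tm2 0 of 1. Each of the 6 holds A_09_P009761 or A_09_P222575. Pairs that share a probe are not independent, so these are not 6 separate results. All 6 calls were lost when either control array was left out, when probes were not filtered on signal and when replicates were blocked crosswise. At an unadjusted p under 0.05 (limma), 12 of the 14 pairs passed in the reported fit. With no filter 9 passed, and with replicates blocked crosswise also 9. The share of all pairs at that unadjusted threshold was not counted, so these unadjusted counts have no background to be read against. With the replicate number as a block 3 of the 6 calls remained, and the 3 lost were those with A_09_P222575.

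Among these 14 pairs the largest difference was between A_09_P009761 and A_09_P009766. The log2 ratio of the first to the second was -0.46 and -0.24 in control flies and -1.87 and -2.10 in KO flies, a difference of -1.63 ± 0.13 (SE, adjusted p = 0.024). In control flies the pair thus shifted little between arrays, and the KO arrays lay apart from them by more than the spread within either genotype. The ratio of A_09_P009761 to A_09_P198680 moved by -1.61 (adjusted p = 0.020), to A_09_P009771 by -1.37 (adjusted p = 0.026) and to A_09_P222575 by -0.71 (adjusted p = 0.047). The fall at A_09_P009761 was accordingly larger than the change at each of the other 4 Tm1 probes named whatever their outcome. The last of these calls was lost without KO replicate 2 (adjusted p = 0.065) and with the replicate block (adjusted p = 0.091).

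Pairs of probes with the same transcript identifier also passed, though not with the replicate block (adjusted p = 0.064 for the first pair below and 0.058 for the second) or without the filter on signal (0.12 and 0.11). The log2 ratio of A_09_P009766 to A_09_P222575 was -0.05 and -0.20 in control flies and 0.75 and 0.84 in KO flies, a difference of 0.92 ± 0.10 (SE, adjusted p = 0.031), which was lost without KO replicate 2 (adjusted p = 0.052). The ratio of A_09_P198680 to A_09_P222575 was -1.27 and -1.40 in control and -0.44 and -0.44 in KO flies, a difference of 0.90 ± 0.09 (SE, adjusted p = 0.026). Between A_09_P009766 and A_09_P198680 the difference was 0.02 with a 95% confidence interval from -0.20 to 0.24 (adjusted p = 0.92).

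The remaining Tm1 pairs did not pass. The change at A_09_P009771 minus that at A_09_P222575 was 0.66 (adjusted p = 0.072). A_09_P009766 minus A_09_P009771 was 0.26 (adjusted p = 0.27), and A_09_P009771 minus A_09_P198680 was -0.24 (adjusted p = 0.26). Ordered by log2 change, the Tm1 probes named whatever their outcome ran from A_09_P009761 over A_09_P222575 and A_09_P009771 to A_09_P198680 and A_09_P009766, and only the step from A_09_P009761 to A_09_P222575 separated neighbours that passed the pair test. Which of the listed transcripts encode muscle tropomyosin and which the cytoplasmic forms is not given in the sources used here.

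Both probes of Tm2, the second muscle tropomyosin gene, fell and did so by similar amounts. A_09_P010166 had signals of 14700 and 18086 in control flies and of 7976 and 5707 in KO flies, with a log2 change of -0.996 ± 0.10 (SE, adjusted p = 0.018). A_09_P166085, of the same transcript FBtr0083078, had 2140 and 2445 in control and 1130 and 865 in KO flies, with a log2 change of -0.93 ± 0.09 (SE, adjusted p = 0.018). The KO arrays were below the control arrays at both probes, as in 37.2% of all tested probes, and lay at 0.501 and 0.524 of control. Their difference in change was -0.06 with a 95% confidence interval from -0.30 to 0.18 (adjusted p = 0.78).

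For wupA, which encodes the inhibitory subunit troponin I, each of the 5 probes carries a transcript identifier of its own. The 3 named whatever their outcome all fell. A_09_P010066 had signals of 12800 and 14754 in control and 5642 and 3894 in KO flies, a log2 change of -1.27 ± 0.09 (SE, adjusted p = 0.013). A_09_P010061 had 10700 and 12060 in control and 5275 and 3835 in KO flies, a change of -1.06 ± 0.08 (SE, adjusted p = 0.015). A_09_P010057 had 1970 and 2262 in control and 1241 and 857 in KO flies, a change of -0.76 ± 0.09 (SE, adjusted p = 0.019). At each of these 3 probes both KO arrays lay below both control arrays, as did 37.2% of all tested probes.

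The wupA probes did not differ from one another past the threshold. The widest gap was between A_09_P010057 and A_09_P010066, the pair that shares the run of 20 bases printed in capitals, where the change was smaller at the former by 0.52 with a 95% confidence interval from 0.32 to 0.72 (adjusted p = 0.056). This pair passed under quantile normalization (difference 0.61, adjusted p = 0.040), cyclic loess normalization (0.64, 0.036), the other background correction (0.59, 0.026), the series' own value table (0.58, 0.025) and the stricter filter (0.52, 0.037). A_09_P010057 differed from A_09_P010061 by 0.30 (adjusted p = 0.15), and A_09_P010061 from A_09_P010066 by 0.22 (adjusted p = 0.28). The wupA probes named from the changed genes, A_09_P219565 and A_09_P126685, had log2 differences of -1.14 and -0.98 and are given as a description.

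The troponin T and troponin C probes were all named from the changed genes and carry no test. For up, A_09_P010206 had signals of 4140 and 5047 in control flies and of 2077 and 1394 in KO flies, a log2 difference of -1.15. The dimmer A_09_P207745 had 768 and 950 in control and 394 and 246 in KO flies, a difference of -1.18. These 2 probes of 1 transcript thus had nearly the same difference at signals that were several-fold apart.

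TpnC4 A_09_P024241 had signals of 15049 and 15442 in control and 6526 and 4379 in KO flies, a log2 difference of -1.23. The TpnC41C probes, of 1 transcript, had log2 differences of -0.99 (A_09_P029646), -0.99 (A_09_P147070) and -1.05 (A_09_P222850). In all of these the KO arrays were below the control arrays, as in 37.2% of all tested probes. These probes were themselves listed because they changed, so this separation is a description only. Of the members, 3 probes were printed as 2 spots on each array, and their paired spots lay 0.868% to 7.59% apart, a technical spread within an array.

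Other genes of the sarcomere, the contractile unit of muscle, were taken from lists of known members. The actin and thick filament probes were all named from the changed genes, so their values are a description with no test. The 3 actin probes had a median log2 difference of -1.40, with Act88F, the flight muscle actin, at -2.49. The 14 thick filament probes had a median of -1.14, with flightin (fln) at -1.68 and the myosin light chain gene Mlc2 at -1.41 and -0.54 for 2 of its probes. Of the 24 probes for Z-disc and giant proteins, 15 were named whatever their outcome. Of these 15, 8 were lower at an adjusted p under 0.05, beside 16.5% of all tested probes, and 0 were higher. Their median was -0.74, and that of the tropomyosin and troponin probes named in the same way was -0.84. Strn-Mlck is a gene of the giant protein family. Its probe A_09_P045791, named whatever its outcome, had a log2 change of -1.27 (adjusted p = 0.013). The signals of that probe were 131 and 145 in control and 54.2 and 40.9 in KO flies. The values of Strn-Mlck ran from -1.28 at A_09_P045831, which was named from the changed genes, to -0.02 at A_09_P008096 (adjusted p = 0.94). The latter is a dim probe, with signals of 37.6 and 37.1 in control and 31.1 and 29.8 in KO flies and an SE of 0.18. Of the 5 probes for other thin filament and calcium genes, 3 were named whatever their outcome, and 1 of them was lower, beside the same 16.5%. Lasp, whose product binds actin, had a log2 change of 0.17 at A_09_P001951 (adjusted p = 0.23) and of -0.43 at A_09_P001956. No test of the second probe, or of the difference between these 2 probes, is given here. The calcium-binding protein gene Scp1 at -1.07 and Mp20 at -1.09 were named from the changed genes.

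Markers of muscle and of other cell types were read on the same arrays. The 15 muscle marker probes are the 14 thick filament probes above and Act88F, and all were named from the changed genes. Their summed level, in multiples of the array's 75th percentile, was 248 and 246 in control and 123 and 119 in KO flies, given as a description. Of the 10 photoreceptor probes, 9 were named from the changed genes, and the summed level of the 10 was 17.0 and 18.8 in control and 6.03 and 6.21 in KO flies, also as a description. Of the 10 probes for follicle cell eggshell genes, 6 were named whatever their outcome. All 6 were higher at an adjusted p under 0.05, beside 3.82% of all tested probes, with a median log2 change of 2.25. The summed level of the 10 was 56.2 and 71.8 in control and 207 and 229 in KO flies. The 2 probes of the germline gene vas and the 2 yolk protein probes taken for fat body, Yp1 and Yp3, did not pass the test, with medians of 0.23 and 0.17. The part of cell makeup in the tropomyosin and troponin values was not tested. All levels are relative to the other RNAs on the array. In RNA of whole flies the share of muscle in the RNA and the level of these RNAs per muscle cell cannot be told apart.

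Genes with a profile most like a member were taken by the distance between log2 profiles over the 4 arrays, each centred on its own mean, among 1912 named probes of other genes. For Tm2 A_09_P010166 the nearest were CG42319 (distance 0.03), CG9297 (0.05), CG4409 (0.05), shakB (0.06) and Cyp301a1 (0.06), with log2 changes from -1.03 to -0.96. For Tm1 A_09_P009766 the nearest were CG1513 (distance 0.005), mim (0.03), asRNA:CR42254 (0.03), cdc2c (0.04) and Cap-G (0.04), with log2 changes from 0.34 to 0.36. Over 4 arrays of 2 genotypes such a likeness mostly restates the difference between genotypes, and it is given as a description.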

How the data were processed

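The authors deposited, for each array, Agilent Feature Extraction output (version 10.7 per the labels) with spot intensity values corrected for background by the software and not normalized between arrays. Intensities of control replicate 1 are rounded in the deposited file. The series' deposited table of intensity values was used as an alternative. Control and outlier spots (45 to 73 per array) were left out, spots of the same probe were averaged as log2 intensity, and values were scaled by subtracting the 75th percentile of their array. A probe with several spots counted as well above background where at least 50% of them were. Genotypes were compared with limma 3.58.1 (lmFit, eBayes) in R 4.3.3 over all 21082 tested probes, and pairs of probes over 6142 within-array log2 ratios, both with Benjamini-Hochberg adjustment. Tables were made with Python 3.11.15, pandas 2.3.3 and numpy 2.4.6. Both fits were also run on simulated data with independent noise for each probe or pair. Such data cannot show how the fits behave where probes of an array, or pairs with a common probe, deviate together.

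The scanner output carries no gene names. Probes were named from the 1965 rows used of the study's list of all probes, which was held only in part, from the 270 rows of its list of changed genes, and, for other genes, from RefSeq accessions. In all 2776 probes have a name. Lists of other genes therefore cover only their named probes. Chromosomes are those of RefSeq, and no coordinates were used. The genes named are all members, the 5 nearest profiles of 2 member probes, and CG32732. From each list of other genes the 2 probes with the largest fall and the 1 with the largest rise were chosen. Only some of the probes chosen from these lists are named. The other Lasp probe was added beside the Lasp probe chosen in this way. Members and lists were chosen with earlier results of these data known. The number of arrays, 2 per genotype, limits the precision. Alternatives to the normalization, background correction (normexp with an offset of 50), filter, source of values, test and replicates were run.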

Additional observations from a re-analysis of the deposited data

How the results depend on the processing

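The 7 member probes lower in KO flies, the 6 differing pairs and the median log2 change of -0.84 were recomputed under the alternatives, except that the methods' t-test gave only counts of probes and the crossed replicate block no median. The count of lower members stayed at 7 under quantile, cyclic loess and median scaling, normexp, the series' value table and the stricter filter. The higher members rose from 0 to 2 under median scaling, where the median was -0.76, and to 1 among probes well above background on all 4 arrays. With no filter there were 0 lower members, 0 pairs, and 26 lower and 38 higher probes in all, with 8047 probes at an unadjusted p under 0.05. By the methods' t-test with Benjamini-Hochberg adjustment there were 0 lower members and 2 lower and 0 higher probes in all, with 6429 at an unadjusted p under 0.05. The higher probes in all, 806 in the reported comparison, were 1425 under quantile, 1495 under cyclic loess, 1309 under median scaling and 413 under normexp, which also gave 1416 lower.

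Leaving out 1 array gave 0 to 7 lower members, 0 to 6 pairs, 0 to 4037 lower and 0 to 941 higher probes in all, and medians from -0.89 to -0.80. The 0 counts came without control replicate 1 or 2, where limma found 7170 and 4823 probes at an unadjusted p under 0.05. The difference between Tm1 A_09_P009766 and A_09_P198680, 0.02 in the reported comparison, changed sign under quantile (-0.0043) and cyclic loess normalization (-0.038) and without KO replicate 2 (-0.025), was 0.066 without KO replicate 1 and was never past the threshold. The causes were not tested.

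The replicate numbers are not shown to pair the arrays, since the deviations of same-numbered arrays were weakly and negatively correlated (r = -0.21 across probes, 2 pairs). With the replicate block there were 6 lower members, 3 pairs (the 3 with A_09_P222575 were lost) and 390 higher probes in all, and with the crossed replicate block, chosen after seeing the data, 6 lower members, 0 pairs, and 1402 lower and 319 higher probes. Signal limits the members at A_09_P009756 and A_09_P152660, which were not above background, and at A_09_P183355.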
